A study of Arabidopsis thaliana with 23 samples.

Results

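The genes described here are the alpha-expansins (EXPA) of Arabidopsis and the xyloglucan enzyme XTH21, followed across 11 groups of root cell samples. Members were every probe set whose only annotated gene symbol was EXPA with a number, plus the probe set of XTH21 (AT2G18800), which gave 11 members (10 expansins and XTH21) of 22746 probe sets. RNA was measured on 23 Affymetrix ATH1 arrays from roots of Columbia seedlings grown for 5 days. The SHR-inducible and SCR-inducible lines carry inducible forms of SHORT-ROOT or SCARECROW, GRAS transcription factors that pattern the root ground tissue, and were moved to medium with 1 micromolar Dex, which switches the factor on. Each line was sampled at 0, 1, 3, 6 and 12 h, with 2 arrays per time, from ground tissue (cortex and endodermis) sorted with the J0571 enhancer trap. The eleventh group, with 3 arrays, was cortex/endodermis initial (CEI) cells sorted with a CYCD6 marker GFP line from seedlings on standard medium without Dex. No group on Dex-free medium was followed over time, so induction and transfer cannot be told apart. For the inducible lines, the sources used here do not give the promoters, the number of independent transformants or any mutant background. The protocol text speaks of cut roots, whereas the source names give sorted cells; the latter are used here.

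Expansins are small wall proteins that let cellulose microfibrils slip past each other at acid pH, so that the wall yields and the cell can grow. Alpha-expansins form the large family in Arabidopsis; beta-expansins and expansin-like proteins are its relatives. XTH enzymes cut and rejoin xyloglucan, the hemicellulose that coats cellulose. In Arabidopsis roots EXPA7 and EXPA18 are known as genes of root hair cells, and XTH21 is known to affect growth of the primary root.

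Signals are the values the authors deposited, on a linear scale. A probe set was tested when, on 2 or more arrays, its signal exceeded the array's 40th percentile, and 7 expansins and XTH21 passed: EXPA4 (AT2G39700), EXPA8 (AT2G40610) and EXPA15 (AT2G03090) on chromosome 2 with XTH21, EXPA7 (AT1G12560) and EXPA18 (AT1G62980) on chromosome 1, EXPA20 (AT4G38210) on chromosome 4 and EXPA9 (AT5G02260) on chromosome 5. EXPA9, EXPA15 and EXPA20 passed that percentile on all 23 arrays, EXPA8 on 21, EXPA4 and EXPA18 on 19 and EXPA7 on 18. XTH21, on 5 arrays, was nearest the limit from inside. EXPA16, EXPA21 and EXPA24 passed it on 0 arrays, with signals of 4.39 to 38.9 for EXPA16, 0.64 to 9.84 for EXPA21 and 1.11 to 26.1 for EXPA24, while the percentile itself ran from 31.0 to 43.6. Signals of different probe sets are not set against each other.

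Median signal per array ran from 62.9 to 79.8. The spiked control transcript dap had a mean signal of 76.8 to 609 on the SHR-line arrays and 2.38 to 8.53 on all others, so this control and the line coincide. Of the marker lists, 2 of 2 cortex genes, 2 of 10 endodermis genes, 1 of 7 stele genes, 2 of 7 division genes and none of the 13 root hair, 3 non-hair epidermis and 4 root cap genes were named in the annotation and measured. Epidermal RNA in the sorted cells could therefore not be checked. No measured marker was at 0: the lowest single signal was 16.8 for a cortex gene. On bulk arrays, fewer cells of a type and less RNA per cell cannot be told apart.

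**Figure D1:**
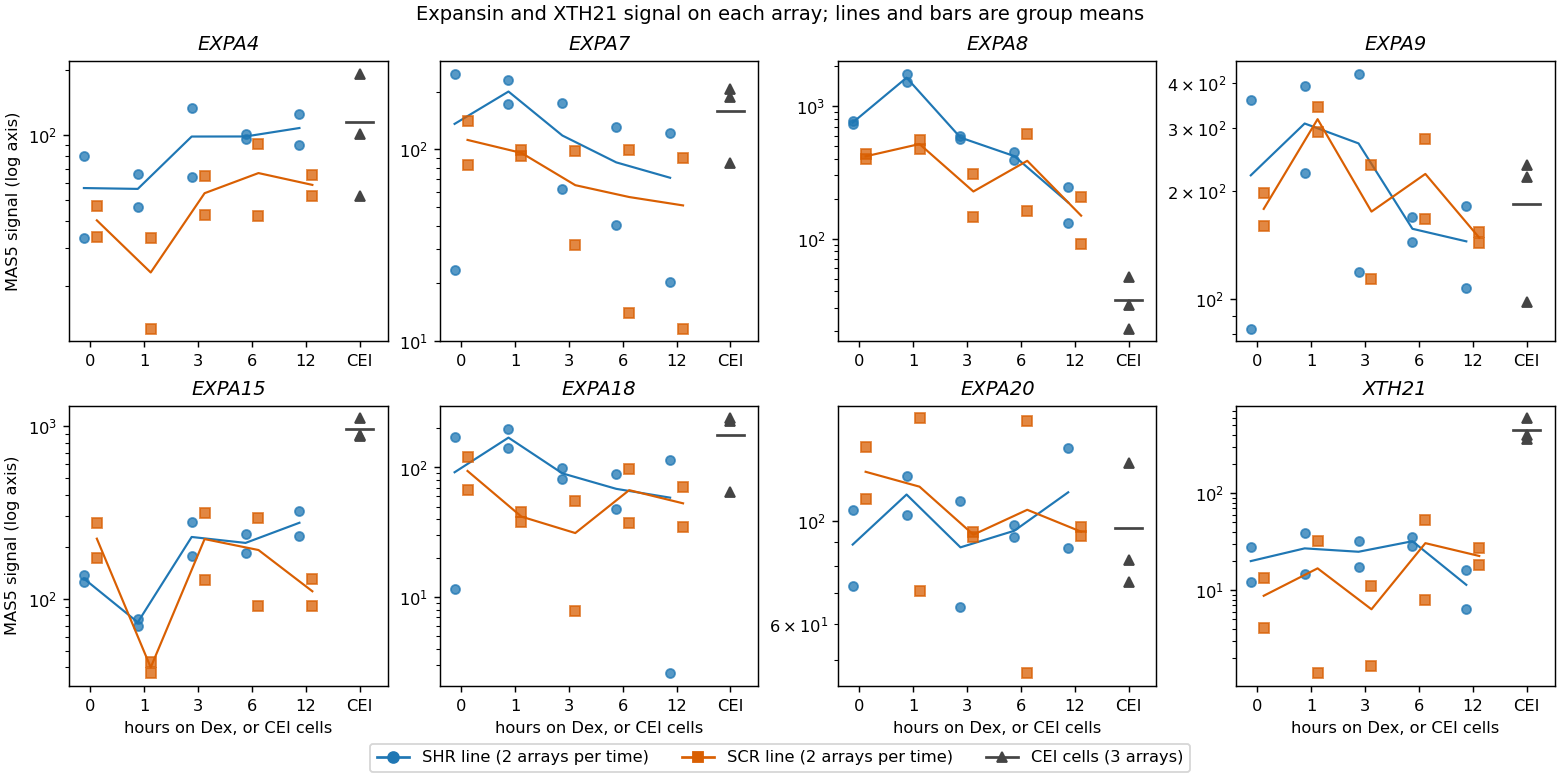
MAS5 signal (log axis) of the 7 tested expansins and XTH21 on each of the 23 arrays, by hours on Dex in the SHR and SCR lines and in CEI cells; lines and bars are group means. CEI arrays lie above all 20 ground tissue arrays for EXPA15 and XTH21 and below all of them for EXPA8.

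CEI cells were compared with ground tissue to ask which wall genes differ between these samples. The CEI arrays differ from all ground tissue arrays in line and sorting marker too, and from those at 12 h in Dex treatment. These cannot be told apart from cell type here. Among the expansins, EXPA15 was higher in CEI cells and EXPA8 was lower, and the other 5 did not pass the test. The signal of EXPA15 was 888, 1108 and 874 on the CEI arrays, against 37.1 to 321 (median 154) on the 20 ground tissue arrays. EXPA8 went the other way, with 20.9, 31.7 and 51.4 on the CEI arrays against 90.6 to 1755 (median 443). For both genes the CEI arrays and the ground tissue arrays did not overlap. Over all tested probe sets, 7.38% had every CEI array above every ground tissue array and 6.13% had every one below.

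Against ground tissue at 0 h, with both lines weighted equally, EXPA15 was higher by 2.43 ± 0.34 (log2 difference of signal + 10, SE) in limma (adjusted p = 0.000176). EXPA8 fell by 3.73 ± 0.39 in the same comparison (adjusted p = 1.96e-05). Since 2 of its 3 CEI signals, 20.9 and 31.7, lay under the 40th percentile of their array, the size of this difference is less certain than its direction. That is 1 of the 7 tested expansins higher and 1 lower, where 9.62% of all tested probe sets were called higher and 10.7% lower. The median difference over the 7 was 0.60, beside 0.04 over all tested probe sets.

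Against ground tissue at 12 h the same 2 genes passed. EXPA15 was higher by 2.39 ± 0.34 (adjusted p = 0.000214). EXPA8, whose ground tissue signal was lower by then, differed by −1.96 ± 0.39 (adjusted p = 0.00248). The background was 7.4% called higher and 9.7% called lower, and the median of the 7 expansins was 0.32 beside 0.10 over all.

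**Figure D2:**
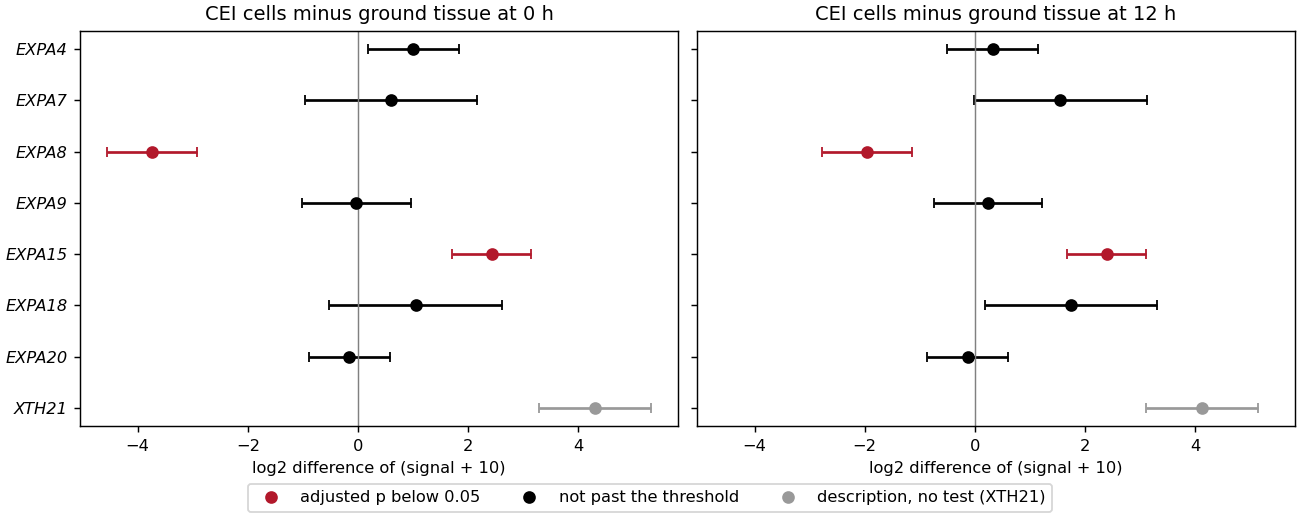
Log2 difference of signal + 10 between CEI cells (3 arrays) and ground tissue (4 arrays, both lines) at 0 h and at 12 h, with 95% confidence intervals from limma. EXPA15 lies at 2.43 and 2.39 and EXPA8 at −3.73 and −1.96; XTH21 is drawn in grey as a description.

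The other expansins did not pass the adjusted threshold. EXPA4, at 101, 192 and 52.4 on the CEI arrays, had a difference of 1.00 ± 0.39 from 0 h (adjusted p = 0.0792), with a 95% interval from 0.17 to 1.82. That value passed without SHR 0 h replicate 2 (1.26) or without CEI replicate 3 (1.42). EXPA9 had an interval of −1.01 to 0.95 and EXPA20 one of −0.89 to 0.58, so larger differences than these lie outside the intervals. Against 0 h the intervals of the root hair genes were wide, −0.96 to 2.16 for EXPA7 and −0.52 to 2.61 for EXPA18. At 12 h EXPA18 differed by 1.74 ± 0.74 in limma (95% interval 0.18 to 3.31, adjusted p = 0.112). Leaving out single arrays gave 0.92 to 2.57. The highest was without SHR 12 h replicate 2, where the SHR-line array left had a signal of 2.61, beside 114 on the array left out.

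XTH21 was chosen with its CEI level already known, so its values are given as a description. Its signal was 400.4, 363 and 588 on the 3 CEI arrays. In the SHR line it read 27.6 and 12.3 at 0 h, 39.2 and 14.7 at 1 h, 17.5 and 32.3 at 3 h, 35.3 and 28.6 at 6 h, and 16.3 and 6.46 at 12 h. In the SCR line the values were 13.4 and 4.09, 32.2 and 1.40, 11.1 and 1.67, 53.2 and 7.87, and 27.0 and 18.1 at the same times. Of the 20 ground tissue arrays, 2 passed the 40th percentile of their array, 1 at 1 h in the SHR line and 1 at 6 h in the SCR line. The log2 difference between CEI cells and ground tissue was 4.30 at 0 h and 4.12 at 12 h. These sizes depend on the value added before taking logs, with 5.09 and 4.77 when 1 was added and 2.95 and 2.88 when 50 was.

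Markers of cell state and cell type moved between the same samples, and their part in the EXPA8, EXPA15 and XTH21 values was not tested. The cortex gene AT1G62500, known as CO2, differed by −1.53 in CEI cells against 0 h (adjusted p = 0.0399), and the other cortex marker, AT1G09750, by −1.83 (adjusted p = 0.0426). Their summed signal was 345 to 592 in CEI cells, 477 to 2167 in ground tissue at 0 h and 609 to 1578 at 12 h. The mitotic Aurora kinases AUR1 and AUR2 were higher by 1.14 (adjusted p = 0.0291) and 1.38 (adjusted p = 0.0329), with sums of 1043 to 1389 in CEI cells, 409.9 to 544 at 0 h and 425 to 1071 at 12 h. Of the endodermis genes, AT4G28100 was higher by 1.16 (adjusted p = 0.0213) and GSO1, a receptor kinase of the Casparian strip, stood at −0.19. Their sums were 854 to 1000.1 in CEI cells, 326 to 1094 at 0 h and 884 to 1408 at 12 h. The vascular regulator LHW was higher too (adjusted p = 0.00777), at 1527 to 1708 in CEI cells, 495 to 723 at 0 h and 511 to 1296 at 12 h. Against 12 h, 1 of these 7 markers passed, AT1G09750 at −1.91 (adjusted p = 0.0402). AT1G62500 then stood at 0.16, AUR1 and AUR2 at 0.74 and 0.82, LHW at 0.98, AT4G28100 at 0.78 and GSO1 at −0.90.

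XTH21 was set beside the other named xyloglucan enzymes, 7 of which were tested. Those that passed were lower in CEI cells, except XTH16. Against 0 h, 3 of 7 were called lower and 1 higher, with a median of −1.12, beside 10.7% lower, 9.62% higher and a median of 0.04 over all tested probe sets. XTH18 had signals of 83.9 to 251 in CEI cells against 656 to 1371 in ground tissue at 0 h, a difference of −2.62 ± 0.43 (adjusted p = 0.000586). XTH32 differed by −2.30 (adjusted p = 0.000869) and XTH20 by −1.73 (adjusted p = 0.00581). The CEI signals of XTH32 were 1.44 to 10.4, under the 40th percentile of every array, so its size is uncertain and moved to −3.45 with 1 added before logs and to −1.11 with 50. For XTH20 it moved to −1.16 with 50 added. XTH16 was higher by 1.60 ± 0.41 (adjusted p = 0.0120), a call that ended without SCR 0 h replicate 2 (1.29) or CEI replicate 3 (1.39). XTH19, XTH29 and XTH33 did not pass. Against 12 h, XTH18 (−2.67), XTH20 (−2.12) and XTH32 (−1.83, or −2.90 and −0.82 with 1 and 50 added) were again called lower, and none higher, with a median of −0.41 beside 0.10 over all and 9.7% of all called lower. XTH18 and XTH19 are close copies at neighbouring loci (AT4G30280 and AT4G30290), and cross-hybridization between such copies was not tested.

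Of the 6 tested beta-expansins and expansin-like genes, 0 were called in limma against 0 h (median −0.36), and 2 had an unadjusted p under 0.05, as did 34.7% of all tested probe sets. EXPB3 was higher against 12 h by 1.16 ± 0.38 (adjusted p = 0.0443), and this ended without any single array of either line at 12 h (1.00 to 1.31), without CEI replicate 2 (0.77) and without CEI replicate 3 (1.30). Among 7 tested genes of cellulose and glucan synthesis, COB, a membrane-anchored protein that guides cellulose deposition, was lower against 0 h by −1.44 ± 0.30 (adjusted p = 0.00330). CSLC12, which belongs to the synthases of the xyloglucan backbone, was higher by 1.34 ± 0.36 (adjusted p = 0.0155), although the call ended without SCR 0 h replicate 1 (1.03), CEI replicate 1 (1.27) or CEI replicate 2 (1.31). The single tested pectin gene, GAUT15, stood at −0.15.

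**Figure D3:**
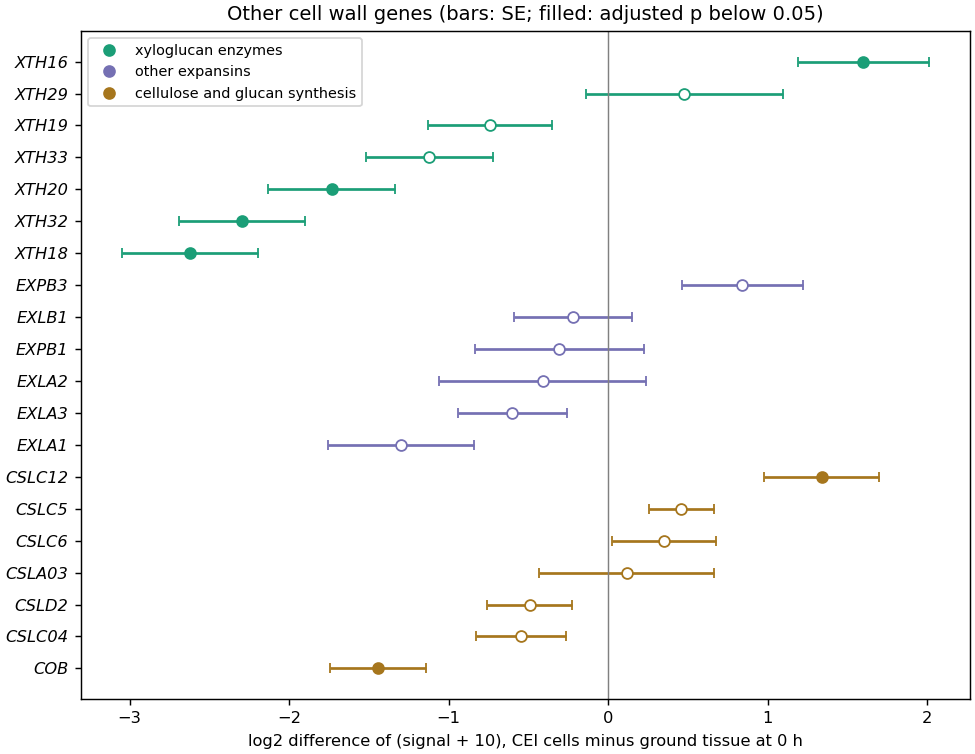
Log2 difference of signal + 10 between CEI cells and ground tissue at 0 h for the other tested wall genes (bars are SE; filled points passed an adjusted p of 0.05). Most xyloglucan enzymes lie left of 0, XTH18 at −2.62 and XTH32 at −2.30, with XTH16 at 1.60 the exception that passed.

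The time courses were examined to ask whether expansin transcripts follow SHR or SCR induction. EXPA8 had its highest level at 1 h in the SHR line and its lowest at 12 h in both lines. In the SHR line its signal was 774 and 729.8 at 0 h, 1527 and 1755 at 1 h, 597 and 563 at 3 h, 449.6 and 390.1 at 6 h, and 130.3 and 244 at 12 h. From 0 to 12 h the arrays of neighbouring times in this line did not overlap. In the SCR line it was 399 and 437 at 0 h, 558 and 478 at 1 h, 309 and 145 at 3 h, 612 and 162 at 6 h, and 90.6 and 208 at 12 h. The arrays at 12 h lay below both 0 h arrays in each line, and those at 6 h in the SCR line spread across most of the range.

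EXPA15 was lowest at 1 h in both lines. In the SHR line it stood at 136 and 125 at 0 h, 69.7 and 76.4 at 1 h, 177 and 279 at 3 h, 237 and 185 at 6 h, and 229.9 and 321 at 12 h. In the SCR line the signals were 172 and 274 at 0 h, 37.1 and 43.0 at 1 h, 129 and 314 at 3 h, 91.1 and 292 at 6 h, and 130.4 and 90.6 at 12 h. By 12 h both SHR-line arrays lay above their 0 h arrays and both SCR-line arrays below theirs. The division genes AUR1 and AUR2 stood at −1.11 and −0.93 at 1 h in the SHR line and at −1.24 and −1.53 in the SCR line, and at 0.92 and 1.37 and at −0.13 and −0.24 at 12 h, none of which passed. Their part in the EXPA15 values was not tested.

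None of these differences passed. In 64 tests of the 8 genes against 0 h, 0 passed in limma and 5 had an unadjusted p under 0.05, all of EXPA8 or EXPA15, where 6.61% of the same tests over all probe sets had one. The background was 0.0125% called for the SHR line at 6 h, 0.00626% for the SCR line at 12 h and 0% at every other time. EXPA8 differed from 0 h by −2.01 ± 0.51 at 12 h in the SHR line (adjusted p = 0.334) and by −1.53 ± 0.51 in the SCR line (adjusted p = 0.568). EXPA15 differed by −2.19 ± 0.44 at 1 h in the SCR line (adjusted p = 0.212) and by −0.76 ± 0.44 in the SHR line (adjusted p = 0.374).

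The F-test over a whole course in limma likewise called 0 of the 8 genes in the SHR line (background 0.0188%) and 0 in the SCR line (background 0%), with EXPA8 and EXPA15 under an unadjusted 0.05 in each. Over all tested probe sets, 17.2% were under it for the SHR course and 3.42% for the SCR course. For EXPA8 in the SHR line the adjusted p was 0.110, and it was 0.0325 when the SHR-line arrays alone were fitted and 0.0417 without SHR 3 h replicate 2. For EXPA15 in the SCR line the adjusted p was 0.726, and leaving out the first SCR-line array at 6 h gave 0.0392 and leaving out the other gave 0.0169, but it was 0.0836 with both left out, an alternative added after seeing the data. EXPA8 in the SCR line passed as well without SCR 6 h replicate 2. The 6 h array then left, replicate 1, had a mean correlation of 0.847 with the other arrays, the lowest in ground tissue. For replicate 2 it was 0.930. The difference between the courses of the lines called 0 of 8 in limma (background 0%), and 0 at an unadjusted p under 0.05, where 7.33% of all tested probe sets were, with an adjusted p of 0.683 for EXPA15 and 0.750 for EXPA8. With each line's replicates as a block, the SHR course F-test called EXPA8 (adjusted p = 0.0135) and EXPA15 (adjusted p = 0.0327). It then called 1254 of all probe sets.

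**Figure D4:**
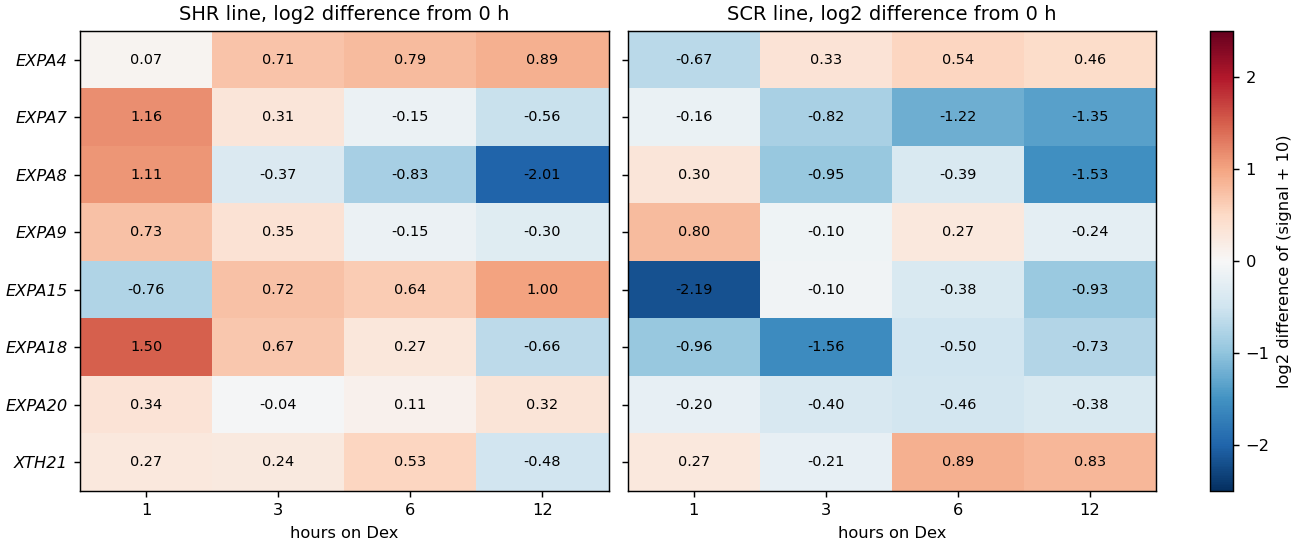
Log2 difference of signal + 10 from 0 h for the 8 tested genes at 1, 3, 6 and 12 h for the SHR line (left) and the SCR line (right), as colour and printed value, each from 2 arrays per time. EXPA8 stands at −2.01 and −1.53 at 12 h and EXPA15 at −0.76 and −2.19 at 1 h; none passed the test.

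The remaining expansins varied between replicates about as much as between times. EXPA9 ran from 82.8 to 424 and EXPA20 from 46.9 to 167 over the 23 arrays, and in the order of their group means every group overlapped its neighbour. At 1 h the 7 tested expansins had a median log2 difference of 0.73 in the SHR line, with 6 of 7 positive, and of −0.20 in the SCR line, with 2 of 7 positive. All tested probe sets had medians of −0.13 and −0.06. Without SHR 0 h replicate 1, EXPA4 (−0.46), EXPA7 (−0.31), EXPA9 (−0.27) and EXPA18 (−0.04) were negative at 1 h in the SHR line. EXPA8 and EXPA20 stayed positive there. At 12 h the medians of the 7 expansins were −0.30 and −0.73, beside 0.02 and −0.11 over all. The xyloglucan enzymes had medians of 0.69 and 0.09 at 1 h and −0.73 and 0.82 at 12 h, with 0 called at either time in limma and 2 and 0 of 7, then 2 and 1 of 7, at an unadjusted p under 0.05. All tested probe sets had shares of 15.9% and 7.39%, then 8.8% and 7.73%. XTH18 was lower in the SHR line than in the SCR line at 12 h, with 403 to 544 against 1982 to 2360 (log2 difference −2.18 ± 0.56, adjusted p = 0.0196). Leaving out any 1 of those 4 arrays ended the call (−1.97 to −2.40).

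The lines were also compared as a whole, SHR minus SCR over the 5 times. EXPA8 was higher in the SHR line by 0.93 ± 0.23 (adjusted p = 0.00823) and EXPA4 by 0.69 ± 0.23 (adjusted p = 0.0395), so 2 of the 8 tested members were higher and 0 lower, where 12.3% of all tested probe sets were called higher and 10.3% lower. The median of the 7 expansins was 0.43, beside 0.08 over all. The signal of EXPA8 in the SHR line was 130.3 to 1755 with a median of 579.6, and in the SCR line 90.6 to 612 with a median of 354. Both SHR-line arrays lay above both SCR-line arrays at 0, 1 and 3 h, and the arrays overlapped at 6 and 12 h. The difference was present at 0 h, and its log2 sizes at 0, 1, 3, 6 and 12 h were 0.83, 1.65, 1.41, 0.39 and 0.35.

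The signals of EXPA4 in the SHR line were 33.5 and 80.2 at 0 h, 46.5 and 66.3 at 1 h, 64.1 and 133 at 3 h, 102 and 95.6 at 6 h, and 90.1 and 126 at 12 h. In the SCR line the values were 33.9 and 46.8, 12.7 and 33.6, 42.9 and 64.8, 42.1 and 91.4, and 65.5 and 52.2. The arrays of the lines did not overlap at 1, 6 and 12 h. The EXPA4 call ended without SHR 0 h, 1 h, 3 h or 12 h replicate 2, either SHR 6 h array, SCR 0 h, 1 h, 3 h or 6 h replicate 1, or either SCR 12 h array (0.58 to 0.72), and with the SCR 6 h arrays both left out (0.72, adjusted p = 0.0536). EXPA8 kept its call without any single array (0.74 to 1.11) and without the SCR 6 h arrays (1.06). Arrays of a line count as independent across times here. With each line's replicates as a block, neither call was kept in limma (adjusted p = 0.0905 for EXPA8 and 0.167 for EXPA4). The spiked control dap was high on every SHR-line array and low on every SCR-line array. The endodermal gene GSO1 differed by −0.85 (adjusted p = 0.0140) between the lines. The other measured endodermis gene, AT4G28100, went the other way, at 0.41, and did not pass. The part of dap and of these genes in the EXPA8 and EXPA4 differences was not tested.

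At 12 h alone the lines differed in 0 of the 8 members in limma (1 at an unadjusted p under 0.05, beside 32.6% of all tested probe sets), with 5.87% of all tested probe sets called higher in the SHR line and 7.38% lower. EXPA15 came nearest, at 1.25 ± 0.44 with both SHR-line arrays above both SCR-line arrays (adjusted p = 0.0677), and it passed when these 4 arrays alone were fitted (adjusted p = 0.0206). XTH21 stood at −0.63 ± 0.63 (adjusted p = 0.506). Outside the members, the expansin-like genes EXLB1 (0.92, adjusted p = 0.00642) and EXLA3 (0.64, adjusted p = 0.0317) were higher in the SHR line over the course, 2 of 6 in their list. The EXLB1 call was kept without each single array and under 27 of 28 alternatives. COB was lower in the SHR line by −0.73 (adjusted p = 0.00731), as was CSLD2, a cellulose-synthase-like gene of tip growth, by −0.54 (adjusted p = 0.0205), while CSLC5 was higher by 0.36 (adjusted p = 0.0406). That is 2 lower and 1 higher of the 7 genes of cellulose and glucan synthesis. Over the course 12.3% of all tested probe sets were called higher and 10.3% lower. The EXLA3 call ended without any of 9 single arrays and that of CSLC5 without any of 15. That of CSLD2 ended without SCR 1 h replicate 1 (−0.45), and COB kept its call without each. Over all alternatives, settings included, the call was kept in 17 of 28 for EXLA3, 11 of 29 for CSLC5, 26 of 29 for CSLD2 and 29 of 29 for COB.

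The root hair genes EXPA7 and EXPA18 spread widely between replicates and did so together. EXPA7 read 23.5 and 248 on the SHR-line arrays at 0 h, where EXPA18 read 11.6 and 172. At 12 h in the same line EXPA7 was at 20.3 and 122 and EXPA18 at 2.61 and 114. In the SCR line at 3 h the pair read 98.4 and 31.6 for EXPA7 and 54.7 and 7.83 for EXPA18. In all 10 time-course groups the array with the higher EXPA7 signal was also the one with the higher EXPA18 signal. For the other 27 pairs of tested members this held in 3 to 9 groups of 10.

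On the CEI arrays EXPA7 was at 188, 206 and 84.5 and EXPA18 at 239, 226 and 64.6, so that 1 array was low in both. Root hair markers could not be examined, and the part of epidermal RNA in these values was not tested. On the log2 scale the group mean of both genes was highest in the SHR line at 1 h, followed by CEI cells, but for either gene every group overlapped its neighbour in the order of the means. Over the 11 group means the correlation of the pair was 0.77, a description of groups that share their arrays, with rank 45 for EXPA7 among the 8848 named probe sets compared with EXPA18.

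**Figure D5:**
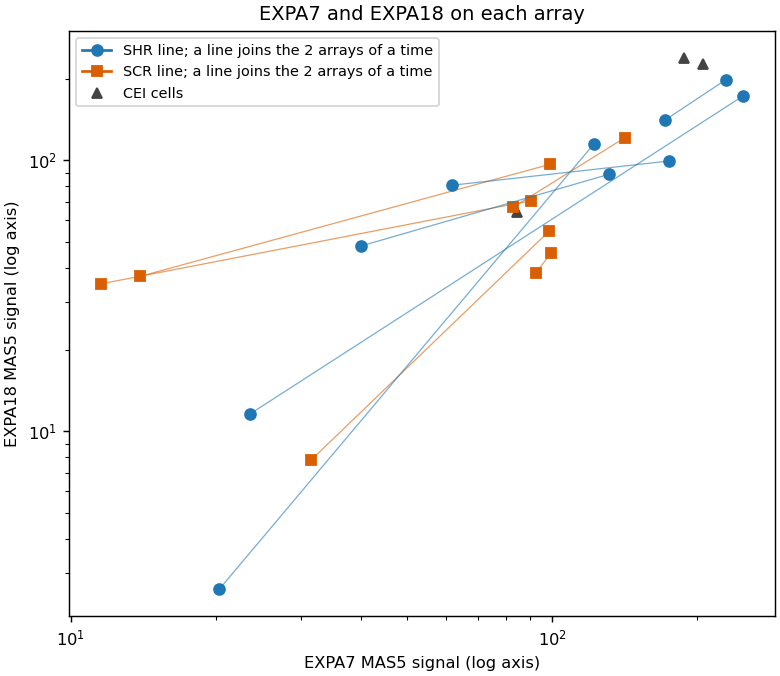
MAS5 signals of EXPA7 and EXPA18 on each of the 23 arrays (both axes log), with a line joining the 2 arrays of each time-course group. Every line rises to the right: in all 10 groups the array with more EXPA7 signal also had more EXPA18 signal.

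For each tested member, the genes with the most similar pattern were taken by Pearson correlation over the 11 group means of log2 signal + 10, among 8848 named probe sets. EXPA7 was most like GH9C1 (0.90), an endoglucanase gene, followed by AT1G30870 and AT3G07070. EXPA18 was nearest to AT5G14510 (0.95), AT5G04960 (0.92) and AT5G43040 (0.90). EXPA8 was nearest to AT2G44380 (0.97), AT3G46280 (0.96) and AT3G28320 (0.96). For EXPA15 the nearest was SPK1 (0.96), then AT5G66470 and AT5G67130 (0.95 each). XTH21 was nearest to AT5G46630 (0.95) and AT5G24000 (0.94), then to GH9B8 (0.93), another endoglucanase gene. The 11 means include CEI cells, where the level of XTH21 was known when it was chosen. Its log2 mean was 8.82 there and 3.97 to 5.39 in the other groups, so its correlations rest mainly on that 1 group. For EXPA15 the CEI mean was 9.91, beside 5.64 to 8.14. EXPA9 was nearest to AT3G07000 (0.93) and CSLA03 (0.93), and EXPA4 to AT5G40710 (0.94). EXPA20 had no pattern as close, with 0.78 for AT4G17810.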

How the data were processed

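The authors deposited one table of MAS5 signal intensities on a linear scale, scaled per array; MAS5 is named per the submitters' processing notes, with no version or filter stated there. RNA was amplified before hybridization, per the labels' protocols. From these intensities 64 control probe sets were set aside and log2(signal + 10) was used without normalizing again. Probe sets above the 40th percentile of their array on 2 or more arrays were tested (15985 of 22746). A limma fit (version 3.58.1, R 4.3.3, eBayes with trend) took 11 group means over 23 arrays, with 12 residual degrees of freedom. Tests were two-sided, with p-values adjusted by Benjamini-Hochberg over all 15985 at 0.05. The number of arrays limits the precision: the median SE was 0.38 for a time point against 0 h and 0.29 for CEI cells against a time. The fit was tested on simulated data. Replicates are biological replicates per the labels. Gene names came from the platform annotation (13513 probe sets with 1 gene), and loci from RefSeq. No table of promoter or protein sequences was used here, so no sequence is shown. All members are named; from each wall or marker list up to 4 genes with the smallest adjusted p are named, and XTH genes one by one. PRP39, matched by a name pattern for wall proteins, is a splicing factor and was left out. The members and lists were chosen with earlier results of these data known. Alternatives were other added values (1 and 50), filters (none, 60th percentile), quantile normalization, eBayes without a trend, fewer arrays, a replicate block and leaving out each array.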

Additional observations from a re-analysis of the deposited data

Results flagged for a closer look

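EXPA15 changed in opposite directions in the lines between 0 and 12 h: both SHR-line arrays rose above their 0 h arrays and both SCR-line arrays dropped below theirs. The difference between these changes was 1.94 ± 0.63 on the log2 scale (SE) and did not pass in limma (adjusted p = 0.351). It includes a difference at the start. Both SHR-line arrays lay below both SCR-line arrays at 0 h (log2 difference −0.69) and above them at 12 h (1.25).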

How the results depend on the processing

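Apart from the described CEI values of XTH21, 1274 of the 1296 alternative log2 differences of the members kept their side of the threshold, and 0 reversed a call. Most of these belong to differences that were not called in the main fit, so the count says little about the calls. For the mean difference between the lines, the EXPA8 call was kept under 28 of 29 alternatives and the EXPA4 call under 13 of 29. EXPA15 and EXPA8 kept their CEI calls under every alternative, with log2 differences of 2.19 to 2.59 and −4.07 to −2.87 against 0 h and 2.14 to 2.51 and −2.24 to −1.32 against 12 h. In the SHR course the F-test called 1 member with only the line's own arrays, and 0 to 1 when single arrays were left out. In the SCR course it called 0 to 2 when single arrays were left out. For the mean difference between the lines the count of members was 1 with no filter, 1 with quantile normalization, 1 without the SCR 6 h arrays and 1 to 3 when single arrays were left out. At 12 h the lines differed in 1 member with only those arrays. Replicate numbers were not treated as pairs in the main fit. Differences between the replicates correlated across times with a median of 0.39 (0.05 to 0.50) in the SHR line. In the SCR line the median was 0.24 (−0.22 to 0.58). With a replicate block the SHR course F-test called 2 members, EXPA8 (adjusted p = 0.0135) and EXPA15 (adjusted p = 0.0327), and the mean difference between the lines called 0, with adjusted p of 0.0905 for EXPA8 and 0.167 for EXPA4. Over all probe sets with the block the F-test count in the SHR line went from 3 to 1254, that for the difference between the courses from 0 to 91, that for the time points from 3 to 370, and the count for the mean difference from 3611 to 1108. Without SCR 6 h replicate 2 the SCR course count was 526, not 0, the difference between courses 1213 and the time points 1963, and without SHR 3 h replicate 2 the SHR course count was 147. Without SCR 6 h replicate 2 the 6 h level rests on replicate 1. Its mean correlation with the other arrays, 0.847, was the lowest in ground tissue. Fitting the compared arrays alone raised the line count at 12 h from 2117 to 3971 and the CEI count against 12 h from 2733 to 4155. Leaving out 1 array at 12 h lowered the 12 h line count from 2117 to between 298 and 683, and leaving out 1 array lowered the CEI count against 0 h from 3241 to as few as 1771 and against 12 h to as few as 1666. XTH21 lay under the 40th percentile on all ground tissue arrays at 0 and 12 h, which limits what its size can show.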

Other observations

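EXPA15 and EXPA4 also shared the higher array in 9 of the 10 time-course groups, with a correlation of 0.73 over the 11 group means, and EXPA15 and EXPA8 had the most opposed patterns of the 28 pairs (−0.72). These pairs were singled out after their values were seen. The 2 probe sets that each name a pair of expansins, EXP26 with EXPA22 and EXPA25 with EXPA23, passed the 40th percentile on 0 arrays, with signals up to 16.8 and 19.6.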
